A study of Mus musculus with 26 samples.

Results

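Apoe, Trem2 and 7 further genes of lipid handling were followed in microglia of the developing mouse somatosensory cortex and in nuclei of all cell types of the same region at E15.5. The 9 genes, picked by symbol, were Apoe, Apoc1, Trem2, Tyrobp, Nr1h3, Abca1, Abcg1, Soat1 and Plin2. All 9 were among the 31053 genes listed for the sorted microglia and the 30406 shared by the gene lists of the nuclei libraries. Pregnant C57Bl/6N dams had been injected at E12.5 with poly(I:C), a double-stranded RNA mimic that induces maternal immune activation (MIA), or with saline. In 18 single-cell libraries, wild-type (WT) Cd11b+ Cx3cr1+ Cd45low microglia were sorted from S1 cortex at E13.5 (3 saline and 3 MIA libraries, pooled embryos of mixed sex), E15.5 (3 and 3, likewise) and P14 (4 saline and 2 MIA libraries, where saline replicate 3 is 1 library labelled female and 1 labelled male). In 8 single-nucleus libraries the prospective S1 cortex of male E15.5 embryos was profiled, with 2 libraries each for WT saline, WT MIA, Csf1r-/- saline and Csf1r-/- MIA, all on the C57Bl/6N background. Csf1r encodes the receptor that microglia need to survive, and its loss removes these cells.

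Apoe encodes the main lipoprotein component of brain, which carries cholesterol and phospholipid between cells, and Apoc1 is a small apolipoprotein encoded next to it. TREM2 is a surface receptor of microglia that binds lipids and lipoproteins and signals through the adaptor DAP12, the product of Tyrobp. Cholesterol taken up by microglia is exported by the transporters ABCA1 and ABCG1, whose genes are induced by the liver X receptors (LXR, of which Nr1h3 encodes LXR alpha), or is esterified by the enzyme made from Soat1 and stored in lipid droplets coated by perilipin 2, the product of Plin2.

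The 9 genes lie on 5 mouse chromosomes (GRCm38), and Apoe (chr7:19696109-19699188, minus strand) and Apoc1 (chr7:19689481-19692660, minus strand) are neighbours. Trem2 is at chr17:48346401-48354147 (plus strand), Tyrobp at chr7:30413760-30417585 (plus strand), Abcg1 at chr17:31057675-31117988 (plus strand), Abca1 at chr4:53030787-53159895 (minus strand), Plin2 at chr4:86648386-86670060 (minus strand), Nr1h3 at chr2:91184061-91202834 (minus strand) and Soat1 at chr1:156424525-156474331 (minus strand). The promoters of 4 genes that carried differences described below are shown, each as the 250 bases upstream of an annotated start from RefSeq (GRCm38.p6), 5′ to 3′ on the strand of the gene, with 1 motif in capitals. In Abca1 (chr4:53159896-53160145) the capitals mark an LXR element of the direct repeat type (GGTNA and GGTCA in either order with 5 bases between them, searched on both strands), 67 bases before the start on the opposite strand, which 0.332% of the 32851 promoters searched held. In Apoe (chr7:19699189-19699438, the outermost of its annotated starts) and Trem2 (chr17:48346151-48346400) they mark the core recognised by PU.1, a factor that defines myeloid cells (GAGGAA on either strand, in 23.3% of promoters), 250 bases and 40 bases before the start, and in Plin2 (chr4:86670060-86670309) a CCAAT box 73 bases before the start (CCAAT on either strand, in 33.8%). These are matches of letters and not sites shown to be bound. The same search gave 1 LXR element among the 6 members that had a promoter entry (Soat1, Nr1h3, Abca1, Plin2, Apoe and Trem2), that of Abca1.
Abca1: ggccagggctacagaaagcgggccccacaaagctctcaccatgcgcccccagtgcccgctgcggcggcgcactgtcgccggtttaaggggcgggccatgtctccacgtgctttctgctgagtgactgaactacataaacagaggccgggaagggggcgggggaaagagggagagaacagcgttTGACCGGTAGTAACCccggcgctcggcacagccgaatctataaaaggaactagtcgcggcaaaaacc
Apoe: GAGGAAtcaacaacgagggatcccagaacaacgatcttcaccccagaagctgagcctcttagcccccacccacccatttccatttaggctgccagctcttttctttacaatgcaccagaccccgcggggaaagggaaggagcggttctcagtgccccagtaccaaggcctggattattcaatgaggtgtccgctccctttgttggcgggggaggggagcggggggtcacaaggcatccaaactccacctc
Trem2: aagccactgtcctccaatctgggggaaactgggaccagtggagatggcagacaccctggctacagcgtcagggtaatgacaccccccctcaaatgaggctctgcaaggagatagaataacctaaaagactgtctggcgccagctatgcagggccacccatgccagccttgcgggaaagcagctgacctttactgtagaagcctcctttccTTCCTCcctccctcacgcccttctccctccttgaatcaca
Plin2: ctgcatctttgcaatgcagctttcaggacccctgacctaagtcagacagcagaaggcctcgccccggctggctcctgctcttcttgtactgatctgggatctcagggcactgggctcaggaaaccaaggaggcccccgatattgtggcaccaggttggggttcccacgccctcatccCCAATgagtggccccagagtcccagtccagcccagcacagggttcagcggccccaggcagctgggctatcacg

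After filtering, each sorted library held 263 to 5446 microglia and 6024900 to 94452440 UMIs (unique molecular identifiers, 1 for each captured RNA molecule), and each nuclei library 4386 to 5891 nuclei and 8880528 to 15952201 UMIs. Levels are given as CPM, the UMIs of a gene per 1000000 UMIs of the summed cells of a library, and fold changes and adjusted p-values come from edgeR's quasi-likelihood test with Benjamini-Hochberg adjustment over all genes tested. The fit also scales libraries against each other (TMM), which CPM does not, so fitted changes can differ from ratios of CPM. In summed libraries, fewer cells of a type and less RNA per cell cannot be told apart. All 10 microglia markers were detected in every sorted library. The smallest sorted libraries shared barcodes with larger ones: E13.5 MIA replicate 2, from which 350 microglia were used, had 257 barcodes that recurred in the female P14 saline replicate 3, with a median of 4557 UMIs there against 14405 in the E13.5 library, and repeated barcodes were kept only in the library where they had most UMIs. In E15.5 saline replicate 1, 29.1% of cells were proliferating-like against 5.9% to 7.6% in the other 5 E15.5 libraries. Csf1r itself, whose 3' tags need not lie in the altered part of the gene, was at 1.93 and 0.999 CPM in nuclei of WT saline, 1.32 and 0 CPM in WT MIA, 0.302 and 1.13 CPM in Csf1r-/- saline and 0.145 and 0.101 CPM in Csf1r-/- MIA libraries. Csf1r and the count of microglia-like nuclei went against the label in 2 cases: no microglia-like nuclei were found in the library labelled WT MIA replicate 2, and 7 were found in the library labelled Csf1r-/- saline replicate 2. By the study's methods each embryo had been typed for Csf1r by PCR on tail DNA. Whether the labels of these 2 libraries were exchanged was not tested. The comparisons of genotypes for Apoe, Plin2 and Soat1 are therefore also given without both.

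Apoe was high in embryonic microglia and low at P14, whereas Trem2 was lowest at E13.5 and its fitted change passed the test between E13.5 and E15.5 only (P14 against E15.5, not called in either treatment). In the saline libraries Apoe was at 8158, 6584 and 6357 CPM at E13.5, at 5914, 9385 and 8950 CPM at E15.5, and at 1326, 1622, 1369 and 1344 CPM at P14. In the MIA libraries it was at 9007, 7906 and 7271 CPM at E13.5, 8691, 9519 and 7834 CPM at E15.5, and 1525 and 1720 CPM at P14. The 12 embryonic libraries overlapped between the 2 ages, and all of them lay above all 6 P14 libraries.

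Trem2 was at 798, 843 and 888 CPM in E13.5 saline libraries and at 789, 754 and 918 CPM in E13.5 MIA libraries. At E15.5 it was at 1095, 1441 and 1518 CPM after saline and at 1614, 1422 and 1289 CPM after MIA. At P14 it stood at 1846, 2064, 1762 and 1802 CPM after saline and at 1955 and 1937 CPM after MIA. The 3 ages did not overlap in any library, and the means over both treatments were 832 ± 62.6 (SD, n = 6), 1396 ± 183 (n = 6) and 1894 ± 112 (n = 6) CPM. Its partner Tyrobp was higher at both later ages than at E13.5: the saline libraries held 2479, 2468 and 2492 CPM at E13.5, 3274, 3621 and 3800 CPM at E15.5, and 3829, 3471, 3043 and 3023 CPM at P14. The corresponding MIA libraries held 2398, 2191 and 2752, then 4355, 3593 and 3195, then 3699 and 3525 CPM, so that E15.5 and P14 overlapped and both lay above E13.5.

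**Figure D1:**
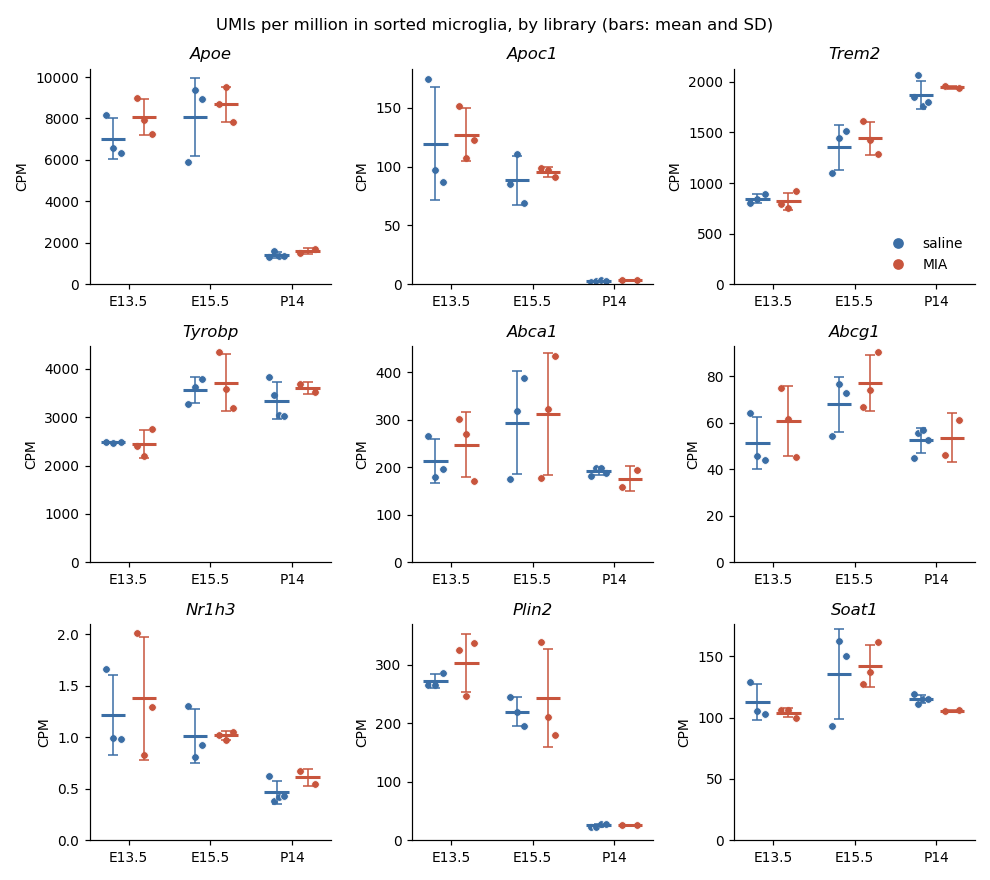
Level of each of the 9 genes (vertical axis, CPM on a linear scale from 0) in the 18 sorted microglia libraries at E13.5, E15.5 and P14 (horizontal axis), with 1 point a library coloured by treatment and bars for the mean and SD of each group. Apoe, Plin2 and Apoc1 drop between E15.5 and P14 with no overlap, Trem2 points lie higher at each later age, of which the step from E13.5 to E15.5 passed the test, and saline and MIA points intermingle at E13.5 and E15.5.

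The lipid droplet coat gene Plin2 and the apolipoprotein gene Apoc1 had the lowest P14 levels relative to the embryonic ones. Plin2 was at 266, 265 and 285 CPM at E13.5, 245, 219 and 195 CPM at E15.5, and 23.3, 23.3, 26.9 and 26.8 CPM at P14 in saline libraries. After MIA it was at 326, 246 and 338 CPM, then 339, 210 and 180 CPM, then 25.5 and 26.2 CPM. The P14 libraries thus lay far below every embryonic library and close to each other. Apoc1 was at 175, 96.7 and 87.1 CPM at E13.5, 85.2, 111 and 68.8 CPM at E15.5, and 1.77, 2.66, 3.29 and 2.57 CPM at P14 in saline libraries, and at 151, 108 and 122, then 98.7, 97.4 and 90.8, then 3.94 and 3.94 CPM after MIA. It had 442 UMIs in all 26617 P14 microglia, against 21037 UMIs in 19474 cells at E15.5.

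The LXR gene, the efflux transporters and Soat1 moved within narrower limits. Abca1 ranged from 170 to 302 CPM over the 6 libraries of E13.5, from 176 to 434 CPM at E15.5 and from 158 to 199 CPM at P14. Abcg1 spanned 44.1 to 74.9, 54.3 to 90.2 and 44.9 to 61.0 CPM, and Soat1 spanned 99.6 to 129, 93.5 to 162 and 105 to 119 CPM. All neighbouring groups of these 3 genes overlapped. Nr1h3 was near the limit of detection, at 0.83 to 2.01, 0.806 to 1.31 and 0.381 to 0.67 CPM. All P14 libraries of Nr1h3 lay below all embryonic libraries.

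The age at which each gene changed was tested within each treatment, where successive comparisons share the E15.5 libraries. From E13.5 to E15.5 in saline microglia, 2 of the 9 genes were called higher and none lower, beside 12.8% and 10.5% of all 14093 genes tested. These were Trem2, which rose 1.63-fold (log2 fold change 0.70 ± 0.15 SE, edgeR adjusted p = 0.0034), and Tyrobp, which rose 1.46-fold (0.55 ± 0.16, adjusted p = 0.020). Apoe differed by 0.23 ± 0.15 on the log2 scale (edgeR adjusted p = 0.30). Abca1 (0.48 ± 0.27), Abcg1 (0.43 ± 0.18), Soat1 (0.29 ± 0.15), Plin2 (-0.28 ± 0.21), Apoc1 (-0.40 ± 0.23) and Nr1h3 (-0.19 ± 0.33) did not pass either. E15.5 saline replicate 1 decided much of this: without it 6 genes were called, with Apoe at 0.42 (edgeR adjusted p = 0.0283), Abca1 at 0.76 (0.0327), Abcg1 at 0.58 (0.02) and Soat1 at 0.51 (0.00292) added. The share of all genes called without that library is not given, so the 6 are not read against it. Leaving out any of the other 5 libraries left the call of Trem2, and that of Tyrobp was lost each time (edgeR adjusted p = 0.0528 to 0.059). Abcg1 was called without E13.5 saline replicate 1 (0.62, 0.0304).

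Between the corresponding MIA groups 3 genes were called higher, beside 14.5% of all genes, and none lower, beside 14.4%. Trem2 rose 1.83-fold (log2 0.87 ± 0.15, edgeR adjusted p = 0.00054), Tyrobp rose by 0.66 ± 0.16 on the log2 scale (adjusted p = 0.0055), and Soat1 by 0.50 ± 0.15 (adjusted p = 0.020). The call of Soat1 was lost without E13.5 MIA replicate 2 or E15.5 MIA replicate 3 (edgeR adjusted p = 0.0644 and 0.0607). Abcg1 was called higher without E13.5 MIA replicate 1 (0.60, 0.0294) and Plin2 lower without E15.5 MIA replicate 1 (-0.60, 0.0137). The summed level of 8 proliferation genes went from 1889 to 2754 CPM at E13.5 to 499 to 2192 CPM at E15.5, and that of 8 homeostatic microglia genes from 6565 to 7211 to 12643 to 20047 CPM. Maturing-like cells, a class described below, made up 0.286% to 1.27% of the microglia in E13.5 libraries and 16.4% to 61.3% in E15.5 libraries. At E13.5 proliferating-like cells made up 24.6% to 35.5% and Ms4a7-like cells 3.45% to 16.9%, and many microglia fell in no named class. The low maturing-like share at E13.5 therefore holds for this naming only. The part of these shifts between E13.5 and E15.5 in the changes of Trem2 and Tyrobp was not tested.

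From E15.5 to P14 in saline microglia, 7 of the 9 genes were called lower, beside 26.3% of all genes, and none higher, beside 24.8%. Apoc1 fell 40.9-fold (log2 -5.35 ± 0.26, edgeR adjusted p = 1.4e-10), Plin2 10.4-fold (-3.38 ± 0.21, adjusted p = 2.5e-09) and Apoe 6.77-fold (-2.76 ± 0.15, adjusted p = 5.5e-10). Nr1h3 fell 2.63-fold, Abca1 1.81-fold, Abcg1 1.54-fold and Soat1 1.39-fold, with edgeR adjusted p-values of 0.002 to 0.0098. The 2 genes of the receptor complex were not called: Trem2 differed by 0.22 ± 0.14 on the log2 scale (edgeR adjusted p = 0.19; 0.20 ± 0.17 and 0.37 in MIA libraries) although its CPM did not overlap, and Tyrobp by -0.33 ± 0.15 (adjusted p = 0.068). The saline means of Trem2, 1351 CPM at E15.5 and 1869 CPM at P14 without TMM scaling, lay further apart than the fitted 1.17-fold. Those of Abca1 (294 and 192 CPM), Abcg1 (67.8 and 52.4 CPM) and Soat1 (135 and 115 CPM) lay closer together than the fitted falls. In CPM the saline libraries of these genes overlapped between E15.5 and P14. Soat1 at P14 (111 to 119 CPM) lay within its E15.5 range (93.5 to 162 CPM). Abca1 lost its call without E15.5 saline replicate 3 (edgeR adjusted p = 0.0601) and Soat1 without E15.5 saline replicate 2 (0.085). Tyrobp was called lower without P14 saline replicate 1 (-0.44, edgeR adjusted p = 0.0222).

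In the MIA libraries 6 of the 9 genes fell from E15.5 to P14, beside 18.6% of all genes, and none rose, beside 17.7%. Only the calls of Apoe, Plin2 and Apoc1 held without P14 MIA replicate 1 (edgeR adjusted p = 0.136 for Abca1, 0.122 for Abcg1 and 0.0531 for Soat1), where the 1 P14 MIA library left is assumed to vary like the other groups. Abca1 and Soat1 also lost their calls without P14 MIA replicate 2 (0.0611 and 0.0639), and Abca1 without E15.5 MIA replicate 3 (0.0616). Apoe fell 6.28-fold (log2 -2.65 ± 0.19, edgeR adjusted p = 5.1e-08), Plin2 11.1-fold and Apoc1 28.5-fold (-4.83 ± 0.33, adjusted p = 2.7e-08), followed by Abca1 (-1.03 ± 0.31), Abcg1 (-0.75 ± 0.20) and Soat1 (-0.65 ± 0.17). Nr1h3 differed by -0.97 ± 0.40 (edgeR adjusted p = 0.066) and was called when same-numbered libraries were paired as a block (-1.02, adjusted p = 0.014). Where repeated barcodes were kept, the female and male P14 saline replicate 3 libraries held 1938 and 1786 CPM of Apoe in place of 1369 and 1344 CPM, and the saline declines became -2.50 for Apoe, -2.91 for Plin2 and -4.15 for Apoc1 on the log2 scale, with every call kept.

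**Figure D2:**
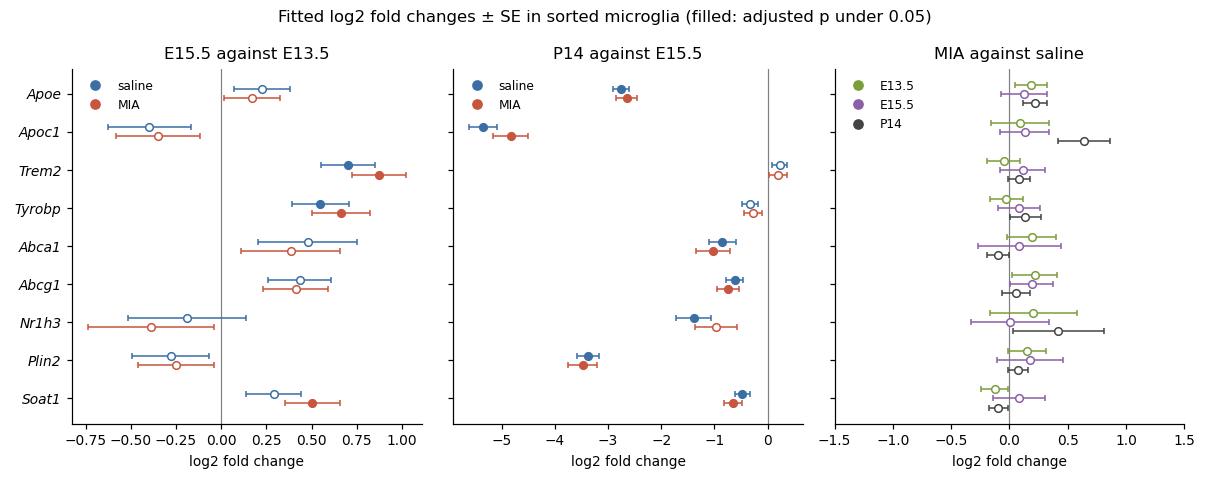
Fitted log2 fold changes (horizontal axis) with bars of 1 SE for the 9 genes (vertical axis) in the comparisons of MIA with saline at each age and of successive ages within each treatment, with filled points where the edgeR adjusted p was under 0.05. The MIA contrasts have no filled point and lie between -0.13 and 0.64, the highest being Apoc1 at P14. The declines of Apoe, Plin2 and Apoc1 to P14 are of like size in saline and MIA libraries.

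MIA was compared with saline at each age, which asks whether the lipid genes of microglia kept a trace of the maternal exposure. No member was called at any age, and neither was any of the 12404 genes tested at E13.5, the 13084 at E15.5 or the 12748 at P14 (0% called in each by edgeR; 114, 79 and 483 genes had an unadjusted p under 0.05, and DESeq2 called 2, 0 and 1). Apoe differed between MIA and saline by 0.19 ± 0.14 at E13.5, 0.12 ± 0.20 at E15.5 and 0.22 ± 0.10 at P14 on the log2 scale, none of which passed (smallest edgeR adjusted p = 0.91). The direction was not stable: without E15.5 saline replicate 1 the E15.5 difference was -0.03, and with repeated barcodes kept the P14 difference was 0.01, with mean levels of 1684 CPM after saline and 1664 CPM after MIA. The members' differences ran from -0.13 to 0.22 at E13.5 and from 0.01 to 0.19 at E15.5, where all 9 were above 0 without any being called. At P14 they ran from -0.10 to 0.64, the last for Apoc1 (0.64 ± 0.22, edgeR adjusted p = 0.91), which both MIA libraries showed at 3.94 CPM and the saline libraries at 1.77 to 3.29 CPM, and which was -0.28 with repeated barcodes kept. The response of Apoe did not differ between E15.5 and E13.5 (-0.06 ± 0.22) or between P14 and E15.5 (0.11 ± 0.22) beyond the spread of the libraries, and edgeR called no gene for either difference (0% of 14093; unadjusted p under 0.05 for 107 and 165 genes; DESeq2 called 0 in each).

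Counting cells instead of summing them showed how widely each RNA was spread, with every cell thinned to 2000 UMIs so that depth did not decide. Apoe was found in 97.9% to 100% of E13.5 microglia, in 98.3% to 99.6% of E15.5 microglia and in 54.6% to 60.8% of P14 microglia (67.8% to 77.5% at P14 before thinning). The neurons sorted along with the microglia, which should lack it, showed it in 45.0% to 64.2%, 34.2% to 63.9% and 13.6% to 20.0% of cells. The P14 neurons were too few to set a background level. P14 microglia lay within the range of embryonic neurons, which had been sorted along with microglia of higher Apoe. Those neurons had median depths of 1336 to 3130 UMIs against 3653 to 26355 UMIs in microglia.

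Trem2 was found in 70.5% to 81.0% of thinned microglia at E13.5, 84.7% to 93.1% at E15.5 and 95.2% to 97.3% at P14 (85.4% to 95.7%, 97.5% to 98.9% and 98.0% to 99.1% before thinning), with 15.0% to 28.3%, 10.6% to 39.4% and 13.6% to 22.5% in neurons. Plin2 was found in 36.8% to 44.7%, 25.1% to 39.2% and 4.29% to 5.56% of thinned microglia (67.1% to 87.5%, 63.0% to 80.9% and 7.52% to 13.55% before thinning), with 5.66% to 15%, 4.26% to 15.2% and 0% in neurons. After thinning, Trem2 was thus found in more cells at each later age, and Apoe and Plin2 in fewer at P14. Before thinning, the Trem2 shares of E15.5 and P14 overlapped. Tyrobp was in 96.2% to 99.9% of thinned microglia over the 3 ages, with 20% to 47.2%, 18.9% to 54.4% and 13.6% to 25% in neurons. Abca1 was in 26.2% to 46.2%, 26.7% to 48.7% and 23.7% to 31.3% (62.6% to 84.8%, 69.4% to 85.3% and 42.5% to 61.1% before thinning), with 0% to 30.3% in neurons. Apoc1 was in 11.3% to 22.3%, 9.38% to 12.9% and 0.333% to 0.461% (30.7% to 55.9%, 24.1% to 35.5% and 0.524% to 1.22% before thinning), with 0% to 4.55% in neurons. The P14 neuron shares come from 2 of the 5 libraries with neurons and from 103 of 178 neurons, 41 of them too shallow to be thinned. The 4.55% rests on 1 of them, so their shares set no background level at that age. Thinning left out 2421 of 11807 microglia at E13.5, 750 of 19474 at E15.5 and 1267 of 26617 at P14. Among neurons it left out 161 of 391 at E13.5 and 1315 of 2594 at E15.5.

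Microglia of one age differed among themselves as well. Clusters were named from marker genes, none of which is a member, but all genes entered the clustering, so the class levels are descriptions without a test. Microglia in no named class, which were many at E13.5, are left out of these comparisons. The Ms4a7-like class, which resembles border-associated macrophages and made up 1.9% to 7.9% of E15.5 microglia, held the most Apoe of the named classes: 18092, 30746 and 30128 CPM in saline libraries and 27063, 28793 and 23406 CPM after MIA. The maturing-like class in the same libraries held 4963, 8306 and 8538 CPM and 7893, 8078 and 8035 CPM. The ratio of the 2 classes was 2.91 to 3.70 within every library. Against proliferating-like cells, the other class with at least 20 cells in all 12 embryonic libraries, the ratio was 2.04 to 6.19 in all 12 embryonic libraries, and for Abca1 it was 2.01 to 3.18. No microglia of the P14 libraries were named Ms4a7-like. The part of the Ms4a7-like class in the declines of Apoe and Apoc1 to P14 was not tested.

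Apoc1, Plin2, Abca1 and Soat1 were also higher in that class than in maturing-like cells in every E15.5 library, and Abcg1 and the receptor genes were not. Apoc1 averaged 326 CPM in Ms4a7-like and 69.1 CPM in maturing-like microglia (2.84 to 5.93 times higher within a library), and Plin2 averaged 334 against 169 CPM (1.73 to 2.29 times). Abca1 (1.10 to 1.46 times) and Soat1 (1.13 to 1.31 times) were also higher in all 6 libraries. Abcg1 was higher in 4 of 6 libraries (ratios 0.93 to 1.28), Trem2 in 1 (ratios 0.81 to 1.08) and Tyrobp in 1 (0.91 to 1.10). The maturing-like class, in turn, exceeded the proliferating-like class in all 6 libraries for Trem2 (1.43 to 1.64 times), Tyrobp (1.40 to 1.62), Abca1 (1.79 to 2.54), Abcg1 (1.15 to 1.73), Soat1 (1.15 to 1.63) and Apoe (1.02 to 1.67).

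Among the named classes Plin2 was highest in another one. In the Spp1-like class of E15.5, which is marked by genes of microglia that engulf debris and made up 0.62% to 10.7% of cells, Plin2 was at 545, 404 and 449 CPM in saline libraries and 596, 405 and 411 CPM after MIA, against 189, 146 and 149 CPM and 240, 154 and 135 CPM in the maturing-like class. Soat1 averaged 243 against 136 CPM (1.65 to 2.06 times higher within a library). Both genes of lipid storage were higher in all 6 libraries, while Apoe was at 0.97 to 1.49 times and Abca1 at 0.63 to 1.07 times its maturing-like level.

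At P14 a cluster stood above the homeostatic-like cells in most of the genes that had fallen. It was led by Ccl4, Ccl3 and Lyz2, made up 4.9% to 9.1% of each library, and held 3071, 4406, 4153 and 4595 CPM of Apoe in saline libraries and 4374 and 4630 CPM after MIA. The homeostatic-like microglia of the same libraries averaged 1128 ± 74.0 CPM (SD, n = 6). Of 26617 P14 microglia 16671 were homeostatic-like, 1811 in this cluster and 1000 interferon-like, and the rest were not compared. Within a library the cluster had 2.89 to 4.52 times the Apoe, 3.33 to 4.36 times the Abcg1 and 2.74 to 3.89 times the Plin2 of homeostatic-like cells. Apoc1 was found in 1.07% to 2.51% of the cluster's thinned cells against 0.243% to 0.337% of homeostatic-like cells (1.82% to 6.07% and 0.373% to 0.901% before thinning). Abca1 (1.67 to 2.00), Trem2 (1.26 to 1.39), Tyrobp (1.21 to 1.31) and Soat1 (1.14 to 1.33) were higher in all 6 libraries too, by less. Interferon-like cells of the same age had 0.79 to 2.23 times the Apoe of homeostatic-like cells. The Plin2 of the cluster led by Ccl4 averaged 69.6 CPM, which was still below the 169 CPM of E15.5 maturing-like cells.

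**Figure D3:**
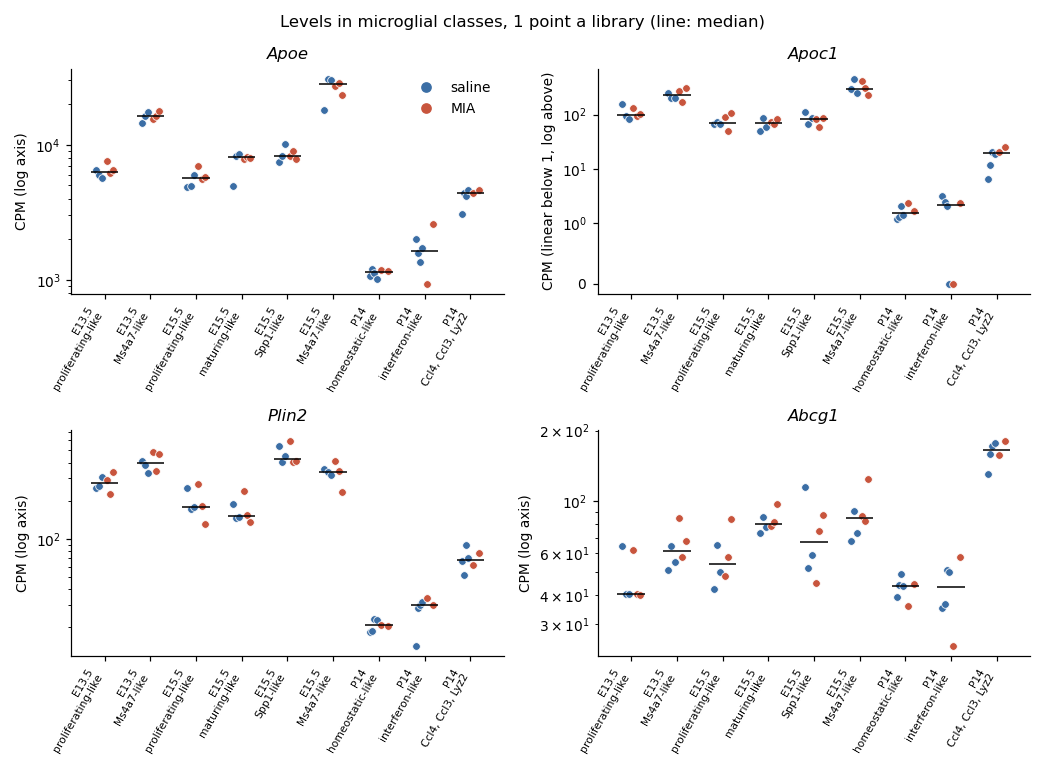
Levels of Apoe, Apoc1, Plin2 and Abcg1 (vertical axes, CPM on a log scale, linear below 1 for Apoc1) in classes of microglia at each age (horizontal axis), with 1 point a library coloured by treatment and a line at the median. Ms4a7-like cells top the Apoe panel at both embryonic ages, Spp1-like cells top the E15.5 Plin2 levels, and the P14 cluster led by Ccl4 and Ccl3 lies above the homeostatic-like cells.

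Changes with age were tested inside the classes that had at least 20 cells in every library. In saline Ms4a7-like microglia 2 of 8 tested members were called higher at E15.5 than at E13.5, beside 3.65% of 9778 genes, and none lower, beside 4.83%; Nr1h3 was too low to be tested. Apoe rose 1.69-fold (log2 0.76 ± 0.19, edgeR adjusted p = 0.026), from 14396, 16377 and 17537 CPM to the levels given above, with no overlap. Trem2 rose 1.80-fold (0.85 ± 0.22, edgeR adjusted p = 0.025), from 635, 850 and 897 CPM to 1198, 1349 and 1611 CPM. Both calls were lost without E13.5 saline replicate 1, E13.5 saline replicate 2, E15.5 saline replicate 2 or E15.5 saline replicate 3 (edgeR adjusted p = 0.0636 to 0.122). A subcluster led by Pf4, F13a1 and Lyve1, with less Trem2 than the rest of the class in all 11 embryonic libraries that held it and less Apoe in all of these but E13.5 saline replicate 3 and E13.5 MIA replicate 2 (3 and 5 cells), formed 40.5% of the class in E13.5 saline replicate 1 and 1.6% to 7.4% in the other 5 saline libraries; without it Apoe was still lower in the 3 E13.5 saline libraries (15512 to 17296 CPM) than in those of E15.5 (18207 to 31458 CPM).

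In saline proliferating-like microglia no member was called between the same ages (0 of 8; 1.53% of 10380 genes were called higher and 0.751% lower by edgeR, with an unadjusted p under 0.05 for 1884, and DESeq2 called 519). Apoe differed by -0.21 ± 0.15 and Trem2 by 0.31 ± 0.17 on the log2 scale. No member was called for MIA in the classes tested: edgeR called 0% of the genes in maturing-like E15.5, proliferating-like E13.5 and E15.5, Ms4a7-like E13.5 and E15.5 and homeostatic-like P14 microglia, where 56, 27, 200, 111, 130 and 462 genes had an unadjusted p under 0.05 and DESeq2 called 0 in each. Spp1-like and interferon-like cells entered no MIA comparison. Homeostatic-like cells made up 33.8% of P14 MIA replicate 2 and 57.3% to 75.2% of the other 5 P14 libraries.

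The wider pathways showed how far the members' course was shared, over 7 lists with 105 genes that hold no member. From E13.5 to E15.5 in saline microglia, 9 of 11 genes of lysosomal lipid release were called higher and 0 lower, with a median log2 fold change of 0.61 against 0.035 over all genes, of which 12.8% were higher and 10.5% lower. Npc2, which passes cholesterol out of the lysosome, rose from a mean of 589 to 1053 CPM (0.86 ± 0.15, edgeR adjusted p = 0.00084), and Hexa, which encodes a lysosomal enzyme of ganglioside breakdown, rose with it (0.81 ± 0.15). Of 17 genes of sterol and fatty acid synthesis 0 were called higher and 3 lower, namely Fasn (-0.84 ± 0.13), Acaca (-0.61 ± 0.17) and Elovl5 (-0.61 ± 0.18), which build and lengthen fatty acids.

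In each remaining list at most 3 genes were called in a direction, which is not read against the shares over all genes. Of 14 LXR and sterol regulators 2 were higher (Lpcat3, 0.71 ± 0.12, and Insig2, 0.55 ± 0.12) and 1 lower (Srebf1, -0.50 ± 0.12). Of 11 lipoprotein and scavenger receptors Scarb2 rose (0.43 ± 0.11) and Cd36 fell (-2.47 ± 0.69). Among other lipoprotein and efflux genes (10 tested) Abca9 rose (1.54 ± 0.27) and the lipoprotein lipase gene Lpl fell (-1.41 ± 0.22), from 363 to 134 CPM. Of 17 lipid droplet genes 2 rose, the lipases Mgll (1.15 ± 0.16) and Pnpla2 (0.69 ± 0.21), and of 18 genes of TREM2 and DAP12 signalling 3 rose, among them Siglech (0.98 ± 0.20), also a marker of homeostatic microglia, and Cd33 (0.47 ± 0.15), and Vav3 fell (-1.51 ± 0.52).

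From E15.5 to P14 in saline microglia the droplet, receptor and synthesis lists had more genes called lower than higher, beside 24.8% higher and 26.3% lower of all genes. Of 17 droplet genes 5 were higher and 9 lower (median -0.36), with the fatty acid binding proteins Fabp5 (-5.62 ± 0.58, from 219 to 5.29 CPM), Fabp7 (-3.98 ± 0.46) and Fabp3 (-3.44 ± 0.42) falling furthest. Of 11 receptors 1 was higher and 6 lower (median -0.92), led by Cd36 (-4.22 ± 0.96), Olr1 (-2.75 ± 0.76) and Lrp8 (-2.50 ± 0.35), and of 17 synthesis genes 0 were higher and 6 lower, led by Fasn (-1.43 ± 0.13), Mvd (-1.15 ± 0.23) and Scd2 (-1.14 ± 0.16).

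The other lists were called in both directions, beside the same 24.8% higher and 26.3% lower of all genes. The lysosomal list had 3 of 11 higher, among them Smpd1 (0.87 ± 0.16), and 4 lower, among them Galc (-0.97 ± 0.14). Of 14 LXR and sterol regulators 3 were higher (with Insig2 at 0.62 ± 0.11 and Lpcat3 at 0.59 ± 0.11) and Pparg lower (-1.96 ± 0.52). Clu rose (3.25 ± 0.69) while Lpl (-1.82 ± 0.20) and Abca7 (-0.32 ± 0.12) fell. Of 18 signalling genes 6 were higher, led by Pik3r1 (1.28 ± 0.18), and 3 lower, led by Vav3 (-4.98 ± 0.72) and Trem1 (-3.81 ± 0.94). Over all genes the median was 0.023, and MIA against saline gave 0 called genes in every list at every age by edgeR.

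The genes whose level ran most like Apoe over the 18 libraries, of 14093 compared, were Lyz2, AB124611, Cxcr2, C3ar1 and Hmox1 (Pearson r of log2 CPM 0.986 to 0.990). Lyz2, the macrophage lysozyme gene, was at 458 to 682 CPM at E13.5, 502 to 604 CPM at E15.5 and 41.2 to 64.7 CPM at P14. Those most like Trem2 were Rac3, Ddrgk1, Ltc4s, Tmem50a and Map1lc3a (r 0.975 to 0.979), and Ltc4s, the leukotriene C4 synthase gene, stepped from 158 to 200 to 525 to 868 to 1244 to 1418 CPM. The libraries of one age share that age, and these correlations describe that order only.

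In the E15.5 cortex the members were read in all nuclei, where few were microglia. Microglia-like nuclei numbered 9 and 6 in WT saline, 8 and 0 in WT MIA, 0 and 7 in Csf1r-/- saline and 0 and 0 in Csf1r-/- MIA libraries, where the second WT MIA and the second Csf1r-/- saline library are those at odds with their labels. Trem2 had 6, 13, 6 and 0 UMIs in the 4 WT libraries and 0, 2, 0 and 0 in the 4 Csf1r-/- libraries. Of these 27 UMIs, 22 lay in microglia-like nuclei. Where Trem2 had no UMI, a count of 0 allows up to 0.217 to 0.302 CPM by the limit of 3 counts, which like all such limits covers counting error only. Tyrobp was at 2.18, 1.45, 0.815 and 0 CPM in WT and at 0, 1.46, 0 and 0.101 CPM in Csf1r-/- libraries, so both genes were seen mainly in libraries with microglia-like nuclei, whatever the label.

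Apoe was lower in the 4 libraries labelled Csf1r-/- than in the 4 labelled WT. Over all nuclei it was at 34.8 and 23.1 CPM in WT saline and 18.6 and 26.3 CPM in WT MIA libraries, against 14.5 and 13.7 CPM in Csf1r-/- saline and 14.3 and 13.8 CPM in Csf1r-/- MIA libraries. The means were 25.7 ± 6.84 and 14.1 ± 0.393 CPM (SD, n = 4 each, two-sided exact permutation p = 0.0286, the smallest that 4 against 4 libraries can give, in 10 such tests over 2 populations of nuclei). Same-numbered nuclei libraries, which also share a version of the counting software, deviated together. When labels were permuted only within a replicate number, which allows 36 arrangements, the exact p was 0.0556, again the smallest possible. Both permutations let genotype labels pass between saline and MIA libraries. Neither holds treatment or litter fixed, so their p-values may be too small. The 4 libraries a side did not overlap, as was true, with the lower values in Csf1r-/-, of 2% of 14344 genes. The fit across all genes did not call it (log2 -0.83 ± 0.16, unadjusted p = 0.00087, edgeR adjusted p = 0.999). With no filter on low counts it did (-0.83, edgeR adjusted p = 0.00325). Without both libraries that went against their labels the means were 25.5 and 14.2 CPM, still apart (exact permutation p = 0.1, the smallest that 3 against 3 can give), as were 5.24% of genes with the lower and 1.96% with the higher values in Csf1r-/-. Were the labels of these 2 libraries exchanged, the groups would overlap. WT saline replicate 1, the library with most Apoe, had 1341 interneuron-like among its 4515 nuclei, against 226 to 402 in each other library. The part of this difference was not tested.

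Microglia-like nuclei held part of this Apoe. They gave 79 of 415 Apoe UMIs in WT saline replicate 1, 44 of 254 in replicate 2 and 27 of 296 in WT MIA replicate 1. The 7 such nuclei in the library labelled Csf1r-/- saline replicate 2 gave 4 of 122. The library labelled WT MIA replicate 2 had none from such nuclei and kept 26.3 CPM. With these nuclei left out, the WT libraries stood at 28.2, 19.1, 16.9 and 26.3 CPM and the Csf1r-/- libraries at 14.5, 13.3, 14.3 and 13.8 CPM, still without overlap.

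Apical progenitors (APs), the radial glia that divide along the ventricle, held more of it. AP-like nuclei, 479 to 754 in each library, gave 40.1% to 56.2% of all Apoe UMIs, the most of 8 named classes in 7 of 8 libraries, and their level was 9.11 to 14.6 times that of the other neurons within every library (92.8 against 8.31 CPM on average). Abca1 was also higher in AP-like nuclei in all 8 libraries (2.78 to 11.98 times), as was Soat1 (1.31 to 2.19 times), whereas Abcg1 was lower in all 8. AP-like nuclei formed 9.44% to 14.8% of each library.

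Within AP-like nuclei Apoe was at 143 and 102 CPM in WT saline, 82.6 and 116 CPM in WT MIA, 77.1 and 71.6 CPM in Csf1r-/- saline and 73.5 and 76.0 CPM in Csf1r-/- MIA libraries. The means were 111 ± 25.5 and 74.5 ± 2.47 CPM (SD, n = 4 each, two-sided exact permutation p = 0.0286) without overlap. Trem2 had 0 UMIs in the AP-like nuclei of every library, which allows up to 1.81 to 3.77 CPM by the limit of 3 counts. Tyrobp had 1 UMI in these nuclei in WT saline replicates 1 and 2 and in Csf1r-/- saline replicate 2, and none elsewhere. Plin2 was also lower in Csf1r-/-, at 20.5 and 14.6, then 21.1 and 16.3 CPM in WT and at 6.00 and 12.6, then 13.2 and 8.06 CPM in Csf1r-/- libraries (18.1 ± 3.16 and 9.94 ± 3.47 CPM, n = 4 each, exact permutation p = 0.0286), from 6 to 35 UMIs in a library. Soat1 was higher in Csf1r-/-, at 54.9 and 53.7, then 65.7 and 66.0 CPM in WT and at 79.1 and 86.6, then 69.6 and 93.2 CPM in Csf1r-/- libraries (60.1 ± 6.70 and 82.1 ± 10.1 CPM, n = 4 each, exact permutation p = 0.0286).

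These 3 of the 4 members tested in AP-like nuclei had groups apart, beside 1.74% of 10770 genes with the lower and 1.51% with the higher values in Csf1r-/-. Abca1 overlapped (37.9 ± 10.1 and 36.6 ± 12.6 CPM). Barcodes of 1 to 99 UMIs, too few for a nucleus, were read in the replicate 1 libraries and had 40.6 and 74.1 CPM of Apoe in WT saline and MIA and 31.8 and 26.7 CPM in Csf1r-/- saline and MIA. The source of this RNA and its part in the AP-like levels were not tested. In the fit across all genes none was called: Apoe differed by -0.58 ± 0.17, Plin2 by -0.89 ± 0.32 and Soat1 by 0.44 ± 0.16 on the log2 scale (edgeR adjusted p = 0.83 for each). Permuted within a replicate number, the exact p of each was 0.0556, the smallest possible. Here too genotype labels passed between treatments. Without both libraries that went against their labels the means were 110 and 75.5 CPM for Apoe, 18.7 and 9.07 CPM for Plin2 and 58.1 and 80.6 CPM for Soat1, each still apart (exact permutation p = 0.1, the smallest possible), as were 4.77% of genes with the lower and 5.63% with the higher values in Csf1r-/-. Were the labels of these 2 libraries exchanged, the groups would overlap for all 3 genes. After thinning to 1000 UMIs, Apoe was found in 6.88% to 9.55% of WT and 4.79% to 6.55% of Csf1r-/- AP-like nuclei (13.3% to 20.7% and 8.10% to 12.6% before thinning), against 0.838% to 1.24% and 0.404% to 0.985% of other neurons. These Apoe ranges of AP-like nuclei are the same without the 2 libraries. The thinned shares of the genotypes overlapped for Plin2 (1.35% to 2.73% in WT, 0.903% to 1.82% in Csf1r-/-) and for Soat1 (5.09% to 6.73% and 5.19% to 9.48%). Thinning left out 268 of 2481 WT and 605 of 2346 Csf1r-/- AP-like nuclei. Their median depths were 1551 to 2307 UMIs in WT and 1136 to 2261 UMIs in Csf1r-/- libraries, so shares before thinning also reflect depth.

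**Figure D4:**
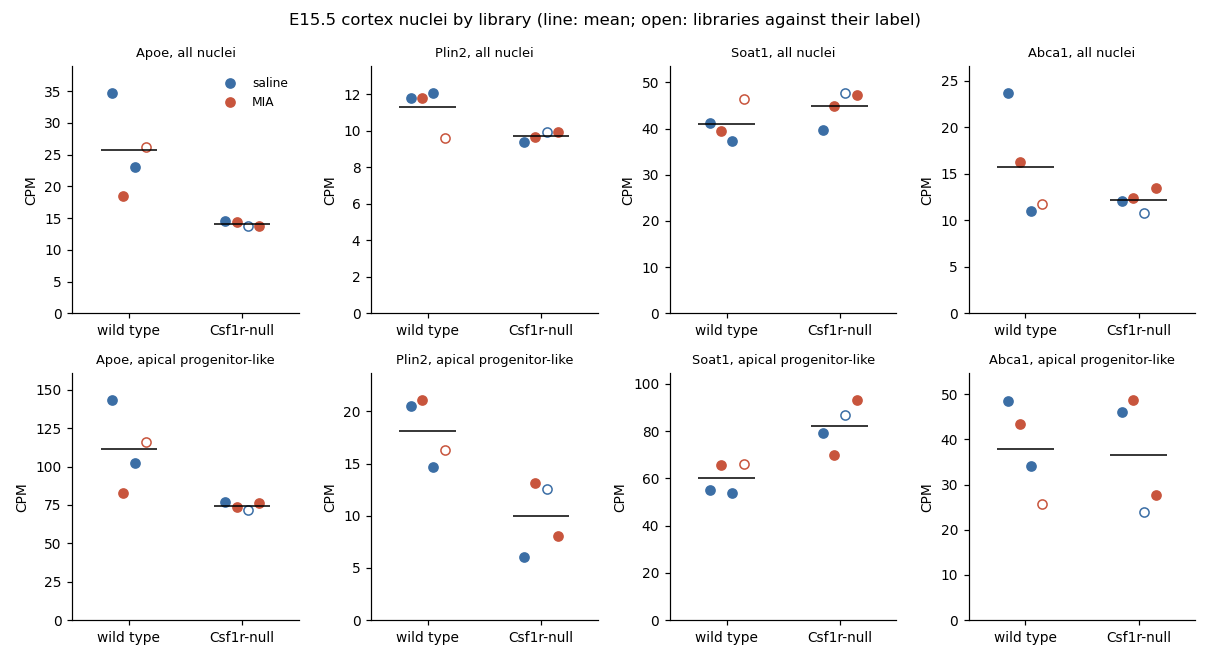
Levels (vertical axis, CPM on a linear scale from 0) in the 8 cortex libraries (horizontal axis, by genotype) over all nuclei and over AP-like nuclei, for Apoe, Plin2, Soat1 and Abca1, with 1 point a library coloured by treatment, a line at the mean and open symbols for the 2 libraries that go against their labels. The Csf1r-/- points of Apoe sit between 13.7 and 14.5 CPM over all nuclei, below the WT points at 18.6 to 34.8 CPM.

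Over all nuclei, the libraries of the 2 genotypes overlapped for the other members tested. The exact permutation p was 0.114 for Plin2 (11.3 ± 1.14 and 9.72 ± 0.271 CPM in WT and Csf1r-/-, n = 4 each), 0.2 for Soat1, 0.371 for Abca1, 0.371 for Tyrobp and 0.543 for Abcg1, and Trem2, Apoc1 and Nr1h3 were too low to be tested. Without both libraries that went against their labels, Plin2 (means of 11.9 and 9.66 CPM) and Tyrobp (1.48 and 0.0335 CPM) no longer overlapped (exact permutation p = 0.1 for each, the smallest possible), whereas Soat1, Abca1 and Abcg1 still did. In other neurons, Apoe overlapped between genotypes, at 7.54 to 11.3 CPM in WT and 5.86 to 8.46 CPM in Csf1r-/- libraries. edgeR called 0 of 14344 genes for genotype over all nuclei (unadjusted p under 0.05 for 444; DESeq2 called 0) and 0 of 10770 in AP-like nuclei (640; DESeq2 called 2).

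No member was called for MIA in nuclei of either genotype. Leaving out the 2 libraries leaves 1 library in an arm of each comparison, so it gives no check of these. Over all nuclei Apoe differed by -0.42 ± 0.22 on the log2 scale in WT and by 0.00 ± 0.23 in Csf1r-/- libraries, and edgeR called 0% of 14344 genes in WT (unadjusted p under 0.05 for 824; DESeq2 called 12), in Csf1r-/- (41; DESeq2 called 1) and for the difference between them (270; DESeq2 called 2). In AP-like nuclei it called 0% of 10770 genes in WT (984; DESeq2 called 52, and edgeR with the replicate number as a block called 246, none of them a member), in Csf1r-/- (176; DESeq2 called 0) and for their difference (362; DESeq2 called 0).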

How the data were processed

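RNA of sorted microglia (18 libraries) and of cortex nuclei (8 libraries) had been captured with the 10x Genomics 3′ v3.1 chemistry. The authors deposited UMI counts per gene and barcode, made with Cell Ranger against mm10 (version 3.1.0 per the file headers of the microglia and of the replicate 1 nuclei, 6.0.1 for the replicate 2 nuclei), and these counts were used as deposited. Deposited barcodes may include background, so sorted cells below 500 genes or above 20% mitochondrial UMIs were dropped, as were nuclei below 500 UMIs or 200 genes. The depositors' tables give no cell types. Cells were clustered (2000 variable genes, 30 principal components, 20 neighbours, Leiden resolution 1) and clusters were named from marker lists, so shares may differ from those of other namings. Doublets were removed at 0.8% per 1000 cells, other cell types were left out, and a barcode repeated between sorted libraries was kept where it had most UMIs.

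Sums of UMIs, taken for each library and each class, were fitted with edgeR 4.0.16 (quasi-likelihood, TMM, filterByExpr, two-sided, adjusted p threshold 0.05 over all genes tested). All 18 sorted libraries shared a fit for the age comparisons, each age had its own for MIA, and the 8 nuclei libraries shared a fit. The female and male libraries of P14 saline replicate 3 share a replicate number and were counted as separate libraries. DESeq2 1.42.0, another scaling, no filter, the replicate number as a block, leaving out each library and other cell filters were the alternatives. The scripts were tested on simulated data (R 4.3.3, Python 3.11.15). Same-numbered libraries deviated together at E15.5 (correlations 0.18 to 0.624) and in nuclei (0.499 to 0.684), where the numbers come from the labels, and not throughout at E13.5 (0.05 to 0.402). In nuclei the replicate number coincides with the Cell Ranger version, so a shared batch and the processing cannot be told apart. With 2 nuclei libraries in a group, their deviations from the group mean are mirror images. Exact tests of genotype within a replicate number, and without the 2 nuclei libraries that went against their labels, were added after seeing the data. WT and Csf1r-/- embryos were littermates from few dams by the study's description, and the labels do not tie libraries to litters, so p-values measure the spread between these libraries. Intervals and limits cover counting error only.

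The 9 members and the lists were chosen with earlier results of these data known. Of the pathway lists, at most 3 called genes with the largest change per list and age comparison are named (1 gene that this rule picks is not reported here), and for likeness the 5 genes with the highest correlation.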

Additional observations from a re-analysis of the deposited data

Results flagged for a closer look

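Single libraries stood apart in the P14 saline group, where the gap of 1 library to its nearest neighbour was tested against the range of the 4 by Dixon's criterion in 36 groups of 4 to 10 libraries, of which chance picks about 1 in 20. P14 saline replicate 2 held 1622 CPM of Apoe over all microglia (others 1326 to 1369 CPM) and 1993 CPM of Trem2 in homeostatic-like cells (others 1711 to 1741 CPM). With repeated barcodes kept, the P14 saline libraries ran from 1385 to 1938 CPM of Apoe, and replicate 2 was not the highest. Nr1h3 was at 0.406 CPM in saline replicate 2 for the cluster led by Ccl4 and Ccl3 and at 3.19 CPM in saline replicate 1 for interferon-like cells, from 1 and 2 UMIs, with 0 in the other 3 libraries each time, so that the criterion was met by these counts alone and shows no library apart.

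Barcodes of 1 to 99 UMIs in the replicate 1 nuclei libraries, of which the report gives the Apoe levels alone, held more Apoe, Trem2 and Tyrobp in the libraries labelled WT than in those labelled Csf1r-/-, by most in WT MIA. Apoe was at 40.6 CPM in WT saline and 74.1 CPM in WT MIA, against 31.8 and 26.7 CPM in Csf1r-/- saline and MIA. Trem2 was at 2.55 and 36.1 CPM against 0.274 and 0.3 CPM, and Tyrobp at 5.26 and 82.9 CPM against 2.74 and 0.599 CPM. The nuclei of the same WT saline and MIA libraries held 0.502 and 0.376 CPM of Trem2 and 2.18 and 0.815 CPM of Tyrobp. There was 1 such library a group, so no test was made, and the source of the RNA in these barcodes was not tested.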

How the results depend on the processing

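Of 893 values recomputed for single members, 827 kept their direction and side of the threshold, 14 became and 25 ceased to be called, and 27 turned sign, none of them called; counts of called members stayed within 1.5 times in 294 of 305 cases. The range over left-out libraries was 1 to 6 members for E15.5 against E13.5 in saline microglia, 3 to 6 for P14 against E15.5 in MIA microglia (3 without P14 MIA replicate 1) and 0 to 2 for E15.5 against E13.5 in saline Ms4a7-like cells. Shares of all genes called are not given for these fits with a library left out, so the ranges are not read against them. With no filter, 1 member was called between the genotypes in all nuclei (Apoe, -0.83, edgeR adjusted p = 0.00325). With the replicate number as a block, Nr1h3 was called between P14 and E15.5 in MIA microglia (-1.02, edgeR adjusted p = 0.0142), and no other call of a member changed with this pairing. Signs turned for Apoe in E15.5 against E13.5 MIA microglia with no cells removed (-0.02), for Apoc1 (-0.28) and the difference of the Apoe responses between P14 and E15.5 (-0.12) with repeated barcodes kept, for Apoe after MIA in Csf1r-/- nuclei with no filter (0.01) or at least 1000 UMIs (0.09), and for Abca1 in AP-like nuclei with at least 1000 UMIs (0.03). Over left-out libraries the sign turned for Nr1h3 in saline E15.5 against E13.5 (-0.42 to 0.08), in saline proliferating-like cells for Abca1 (-0.22 to 0.15), Abcg1 (-0.07 to 0.32) and Soat1 (-0.10 to 0.10), and between genotypes for Tyrobp (-5.73 to 0.45) and Abcg1 (-0.09 to 0.00) in all nuclei and Abca1 in AP-like nuclei (-0.31 to 0.16). It also turned for Apoe after MIA at E15.5 (-0.03 to 0.24), its difference between E15.5 and E13.5 (-0.22 to 0.08) and between P14 and E15.5 (-0.03 to 0.26), and Apoe after MIA in Csf1r-/- nuclei (-0.05 to 0.05). The cause was not tested.

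Genes called over the whole table moved by over 1.5 times, among the block, DESeq2 and no filter, in these comparisons: saline proliferating-like E15.5 against E13.5 (237, with DESeq2 519), saline Ms4a7-like (829, with no filter 1274), WT nuclei after MIA (0, with DESeq2 12 and no filter 75), AP-like WT nuclei after MIA (0, with the replicate block 246, DESeq2 52, no filter 109), MIA at E13.5 (0, with the block 5, DESeq2 2) and at P14 (0, DESeq2 1), MIA in Ms4a7-like cells (0, with no filter 25 at E13.5 and 24 at E15.5) and homeostatic-like cells (0, no filter 5), MIA in Csf1r-/- nuclei (0, DESeq2 1, no filter 6; AP-like, no filter 2), the difference of the MIA responses in nuclei (0, block 2, DESeq2 2, no filter 13; AP-like, no filter 6), genotype in all nuclei (0, with no filter 44) and in AP-like nuclei (0, with the block 9, DESeq2 2, no filter 22). Scaling libraries by RLE, another such method, in place of TMM moved fold changes by at most 0.0288 on the log2 scale. Both differ from CPM, which is scaled by the total alone. Keeping repeated barcodes, an alternative chosen after seeing the data, kept 7 members called between P14 and E15.5 in saline and 6 in MIA microglia. Maturing-like cells at E13.5 were too few to be tested (1 to 12 cells in the smallest library). Nr1h3, with 5 to 122 UMIs a library, and Plin2 in AP-like nuclei are limited by depth.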
